A study of Mus musculus with 24 samples.

Results

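Mycn and 5 of its neighbors on proximal mouse Chr 12, Ddx1, Nbas, Odc1, Rrm2 and Id2, were followed through the DNA copy number of 21 murine adrenal glands and tumors. The 6 genes were chosen by position, since they lie in the part of Chr 12 that is syntenic with human 2p, the home of MYCN. They are 6 of 20621 autosomal protein-coding genes with a value in each sample, and 6 of 639 on Chr 12. Copy number came from shallow whole genome sequencing (sWGS), in which the density of reads along a chromosome reports how many copies of it the tissue holds. Each value below is the log2 ratio of the segment that covers a gene, relative to adrenal glands of CRE-negative wildtype mice (AG, n = 3), which therefore have no values themselves. A log2 ratio of 0 stands for 2 copies, and 3 copies in every cell would give 0.585. AGM (n = 5) were adrenal glands with the genotype MYCN fl/wt and CRE +. TI (n = 8) were tumors of CRE + mice with an IGF2BP1 transgene on both alleles, except for replicate 1, which is IGF2BP1 +/-. TIM (n = 8) were tumors of CRE + mice that carried IGF2BP1 as well as MYCN. Animal ages are not in the labels used here. As the study describes them, the transgenes are human, sit at the Rosa26 locus behind a stop cassette and are released by a Cre recombinase driven by Dbh. Dbh is a gene of catecholamine synthesis. TI replicate 6 and TIM replicates 1 and 5 were labelled as adrenal gland, and the others as tumor. DNA holds no expression markers against which these tissue labels could be checked.

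MYCN is a transcription factor of the MYC family. It binds DNA as a dimer with MAX, drives growth and proliferation, and is amplified at 2p in many high-risk neuroblastomas, where DDX1 and NBAS are often part of the same amplicon. A focal amplification raises a short region to many copies, whereas the gain of a whole chromosome or chromosome arm adds a copy of all its genes. The question here was which of these forms the copy number of mouse Mycn takes in tumors that carry IGF2BP1, an RNA-binding protein, with or without a MYCN transgene.

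On GRCm39, Mycn spans chr12:12986076-12992915 on the minus strand. Ddx1, an RNA helicase gene, lies 0.274 Mb further along at chr12:13266795-13299226 (minus strand). Nbas, which encodes a protein of traffic between Golgi and endoplasmic reticulum, follows at chr12:13319106-13637070 (plus strand). Odc1, the gene of the rate-limiting enzyme of polyamine synthesis and a known MYC target, lies at chr12:17594383-17601507 (plus strand). Rrm2, a subunit of the ribonucleotide reductase that supplies deoxynucleotides, lies at chr12:24757811-24764145 (plus strand). Id2, an inhibitor of basic helix-loop-helix transcription factors, lies at chr12:25143798-25147282 (minus strand), 12.2 Mb from Mycn.

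To show the DNA whose copies are counted, the 172 bases directly before the first exon of the canonical Mycn transcript are given here, from the RefSeq promoter table (built on GRCm38.p6) and matched without mismatch to chr12:12991916-12992087 of GRCm39, minus strand. They lie upstream of that transcript, within an intron of a longer annotated one. Capitals mark TTTGGCG, letters that resemble the binding motif of E2F cell cycle factors.
Mycn promoter: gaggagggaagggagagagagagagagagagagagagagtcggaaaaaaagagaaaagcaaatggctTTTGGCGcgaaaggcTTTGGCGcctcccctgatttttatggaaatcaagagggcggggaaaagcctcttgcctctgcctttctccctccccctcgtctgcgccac
The matches begin 105 and 90 bases before the exon. The letters were chosen after the sequence had been seen. Searched on both strands, they occur in 1.56% of 32851 RefSeq promoter windows of 300 bases and in 1 of the 6 genes here, Mycn. CACGTG, the motif of MYC and MAX dimers, which reads the same on either strand and does not overlap TTTGGCG here, occurs in 7.15% of the windows and in 0 of the 6. These matches describe the sequence and were not linked to copy number.

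Mycn was at 2 copies in each AGM gland and each TIM tumor and above them in each TI tumor. In AGM, the log2 ratio at Mycn was 0.013, 0.015, 0.014, 0.012 and 0.013 in replicates 1 to 5. In TIM it ranged from 0 to 0.023 with a median of 0.0059. In TI it ranged from 0.064 to 0.638 with a median of 0.540. The 8 TI values lay above all 13 others, without overlap.

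**Figure D1:**
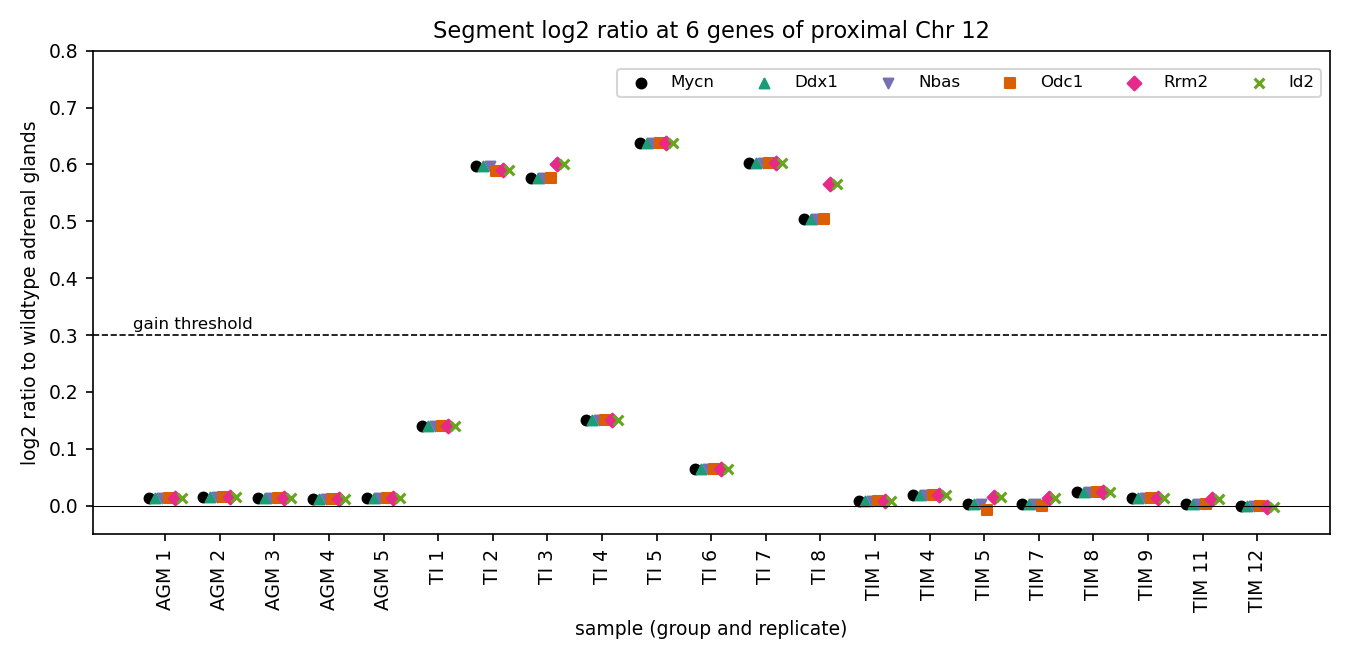
Log2 ratio of the segment at each of the 6 genes (symbols) in 5 AGM glands, 8 TI tumors and 8 TIM tumors, with the gain threshold of 0.3 as a dashed line. In TI replicates 2, 3, 5, 7 and 8 all 6 genes lie between 0.504 and 0.638, in TI replicates 1, 4 and 6 between 0.064 and 0.150, and in the other 13 samples at or below 0.023.

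The TI tumors held 2 kinds of level. TI replicates 2, 3, 5, 7 and 8 had log2 ratios of 0.597, 0.576, 0.638, 0.603 and 0.504 at Mycn, which correspond to copy numbers of 3.02, 2.98, 3.11, 3.04 and 2.84. These 5 tumors passed the study's gain threshold of 0.3 and lay near the level of 3 copies. TI replicates 1, 4 and 6 had 0.140, 0.150 and 0.064, or copy numbers of 2.20, 2.22 and 2.09, and stayed below the threshold. No sample reached the loss threshold of -0.4, and no copy number at any of the 6 genes was above 4, the criterion used here for an amplification. A gain at Mycn was thus present in 62.5% of TI (5 of 8; Clopper-Pearson 95% interval 24.5 to 91.5%), in 0 of 8 TIM (0 to 36.9%) and in 0 of 5 AGM (0 to 52.2%).

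TI lay above TIM at Mycn without overlap, although the TI tumors themselves ranged widely. The median at Mycn was 0.534 higher in TI, with means of 0.409 ± 0.245 (SD, n = 8) in TI and 0.0093 ± 0.0089 (SD, n = 8) in TIM. All 64 pairs of a TI with a TIM tumor had the higher value in TI. The exact two-sided permutation test of the rank sum gave p = 0.000155, the smallest it can give for 8 against 8, and the Benjamini-Hochberg (BH) adjusted p over all 20621 genes was 0.0050. All 6 genes were called higher in TI with these p-values, against a background of 10.7% of all genes (2203) called higher in TI. The size of this background depended on the tumors kept. It fell to 928 genes without TI replicate 1, to 644 without TI replicate 3, 5 or 7 and to 1458 without TIM replicate 5. All 6 genes and all 639 of Chr 12 were still called with any 1 tumor left out. The call was not particular to the 6 genes, since all 639 genes of Chr 12 were called. Of the 2203 genes, 1311 had medians at least 0.3 apart, with 639 of them on Chr 12, 669 on Chr 11 and 3 on Chr 5. Without TI replicate 3, 5 or 7, the 644 genes still called held 639 of Chr 12, so that nearly all calls on Chr 11 were lost. These lost calls do not place the Chr 11 difference in 1 tumor. On Chr 11, 794 genes were gained in at least 5 of 8 TI tumors. The count of gained tumors, 5 of 8 against 0 of 8, gave p = 0.0256 in Fisher's exact test (two-sided) and an adjusted p of 0.557 over all genes.

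TI also lay above AGM. The median at Mycn was 0.527 higher in TI than in AGM, whose mean was 0.013 ± 0.00097 (SD, n = 5), and each of 40 pairs had the higher value in TI. The exact permutation test gave p = 0.00155 for each of the 6 genes, again the smallest possible without ties, with an adjusted p of 0.0099. In this comparison 6.35% of all genes (1309) were called higher in TI, of which 639 lie on Chr 12. With a difference of group means in place of the rank sum, the adjusted p at Mycn was 0.0626 and the call was lost. By limma the adjusted p at Mycn was 0.0478, and 1300 genes were called higher in TI, 627 of them on Chr 12.

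TIM did not differ detectably from AGM at any of the 6 genes. Mycn had medians of 0.0059 in TIM and 0.013 in AGM, with p = 0.435 in the exact permutation test (adjusted p = 0.670), and Rrm2 and Id2 had 0.014 and 0.013 (p = 0.833, adjusted p = 0.911). Here 0 of 20621 genes (0%) were called in either direction by this test and 0 by limma, while 1669 had an unadjusted p under 0.05, none of them among the 6. With 8 against 5 samples the smallest possible p without ties is 0.00155, so that at least 641 genes must reach it before any passes the adjustment, and a change of a few genes could not have been called. The mean at Mycn was lower in TIM by 0.0041 (difference -0.0041, SE 0.0040 by limma). In both groups, which carry the MYCN transgene at Rosa26, the segment at mouse Mycn thus lay within 0.023 of a log2 ratio of 0.

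The prefixes of the sample titles run along with the genotypes. AGM, TIM and TI replicate 8 carry AGH, whereas TI replicates 1 to 7 and the wildtype reference glands carry SH, and the labels do not explain these prefixes. Prefix and genotype cannot be told apart over the other 7 TI tumors. TI replicate 8, the only TI tumor with the prefix of TIM and AGM, had 0.504 at Mycn, above their highest value of 0.023. On other chromosomes 669 genes of Chr 11 and 892 of Chr 17 were called higher and 2232 genes of the genome lower in TI than in TIM, but these counts changed with the tumors kept. The lower count ranged from 2 (without TI replicate 3, 5 or 7) to 4537 (without TIM replicate 12), with 98 without TI replicate 1, and of the 644 genes called higher without TI replicate 3, 5 or 7, 639 lie on Chr 12. By length-weighted median single autosomes other than Chr 12 ranged from -0.681 (Chr 14, replicate 7) to 0.587 (Chr 11, replicate 8) in TI and from -0.093 (Chr 15, replicate 4) to 0.671 (Chr 6, replicate 12) in TIM.

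Mycn did not stand above the rest of its chromosome. In the 5 gained tumors the gain ran over 115.5 to 116.96 Mb of Chr 12, or 96.2 to 97.4% of its 120.1 Mb. The first 3 Mb and the last 93 kb, where the log2 ratio was listed at 0 in these tumors, are 100% unknown bases (N) in the reference. Mycn exceeded the length-weighted median of Chr 12 outside 5 Mb around it by 0.00095 in TI replicate 2 and by 0.0042 in replicate 3. In replicates 1, 4, 5, 6 and 7 the difference was 0, and in replicate 8 it was -0.044, or -0.0038 with only 1 Mb around Mycn left out and also against Chr 12 beyond 32 Mb. The AGM glands had a single Chr 12 segment each and a difference of 0. The exact permutation test did not separate TI from AGM (p = 0.907), TIM from AGM (p = 0.231) or TI from TIM (p = 0.227) in this difference. Against the other 18 autosomes instead, Mycn was higher by 0.039 to 0.670 in TI and differed from TIM at p = 0.000155 in the same exact permutation test.

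**Figure D2:**
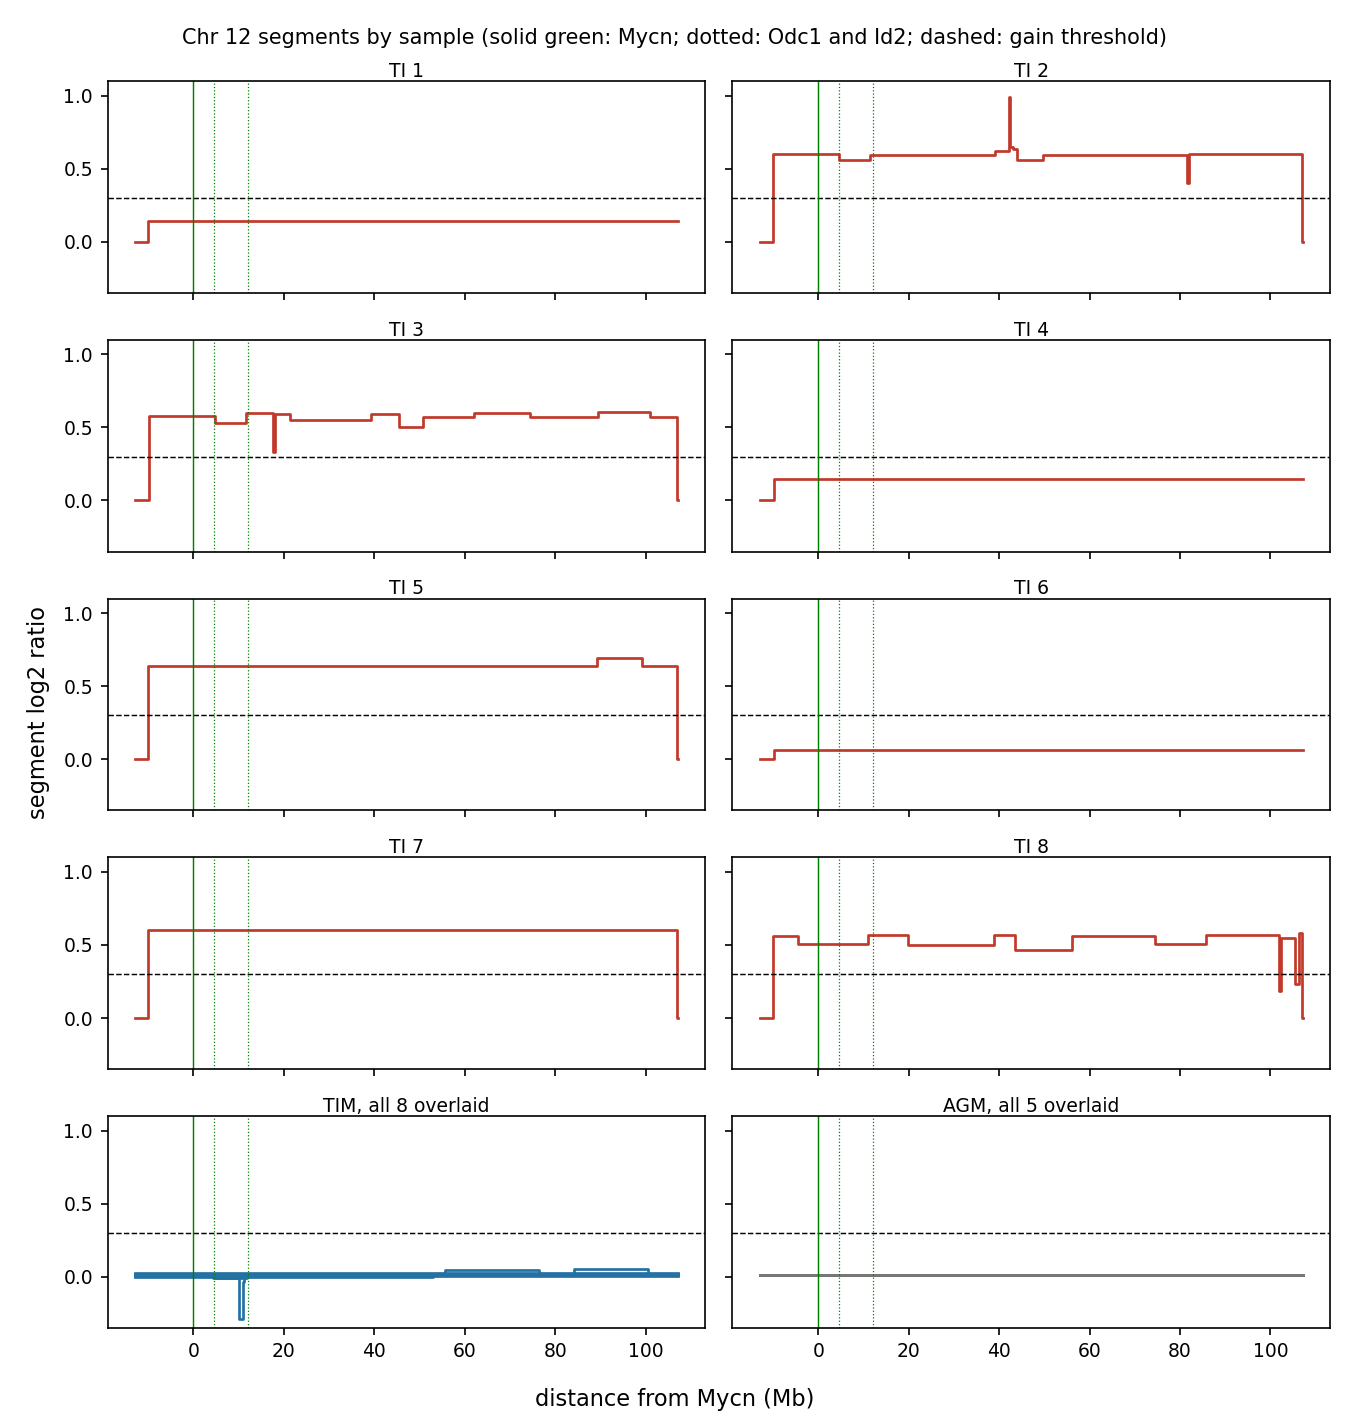
Segment log2 ratio along Chr 12 against the distance from Mycn in Mb, with 1 panel for each TI tumor and overlays for 8 TIM tumors and 5 AGM glands. In TI replicates 2, 3, 5, 7 and 8 the line is raised from end to end, with no peak at Mycn, and in TI replicates 1, 4 and 6 a single segment lies slightly above 0.

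A short amplicon at Mycn was looked for within 5 Mb on either side. No sample had more than 2 segments in that window. In 15 samples a single segment filled it. Of the 6 samples with 2 segments, the segment of Mycn was the higher in TI replicates 2 and 3 and TIM replicates 5, 7 and 11, and in TI replicate 8 the other was higher by 0.055. Segments of at most 1 Mb with a copy number above 4 were listed 27 times in the 21 samples, from 60 kb in length, and 0 of them lay on Chr 12. Mycn is 6.84 kb long and lies within a single 20 kb bin, and the shortest segment listed anywhere spans 40 kb, so that a change limited to that bin was not detectable. The highest value on Chr 12 was 0.992 (copy number 3.98) in TI replicate 2, on a 160 kb segment at chr12:55140001-55300000, 42.1 Mb from Mycn. It overlaps Srp54a, Srp54b and Srp54c, which encode the signal recognition particle subunit SRP54, together with Fam177a and Fam177a2.

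Chr 12 was among the highest autosomes of each TI tumor. By length-weighted median it had rank 1 of 19 in TI replicates 2, 3, 5 and 7, rank 2 in replicates 6 and 8 and rank 3 in replicates 1 and 4. In TIM its rank ranged from 1 to 14 and in AGM from 5 to 17. In TI replicate 2 the next highest autosome by this measure, Chr 10, was at 0.022. In TI replicate 8 Chr 11 was higher, at 0.587. Mycn itself lay above 82.9 to 96.9% of all genes of its tumor in TI, above 0.674 to 96.8% in TIM and above 15.0 to 73.9% in AGM, so that a high position was not particular to TI.

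**Figure D3:**
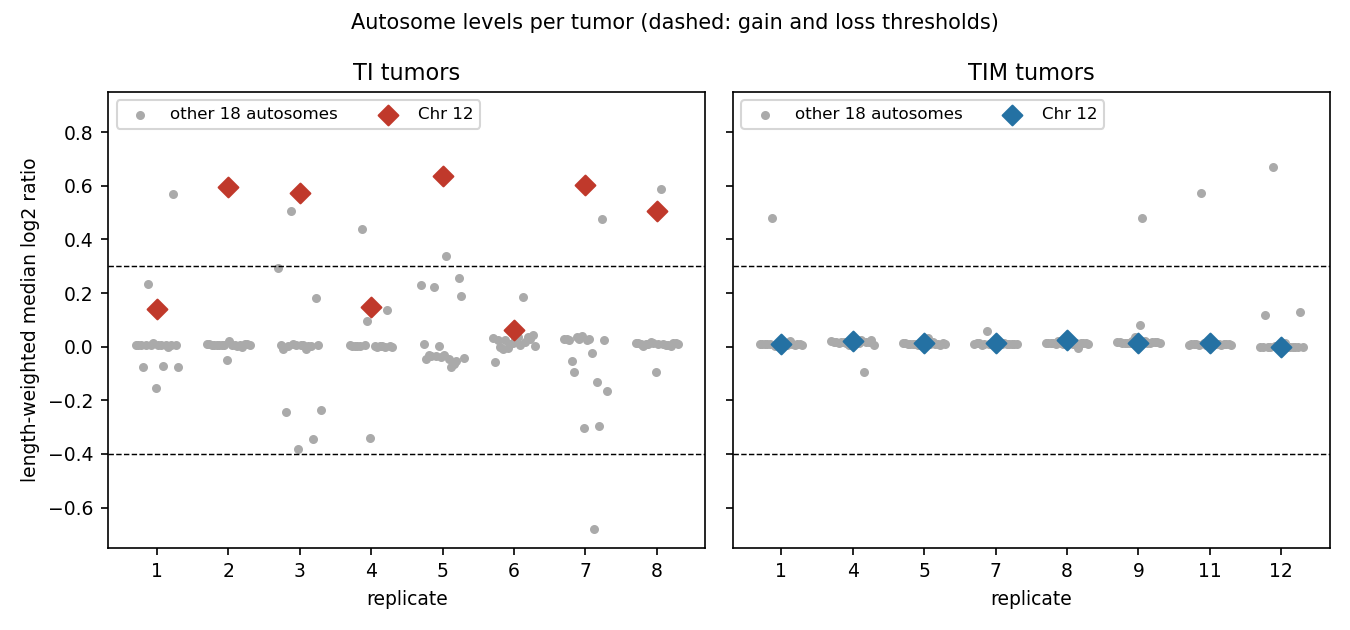
Length-weighted median log2 ratio of each autosome in 8 TI and 8 TIM tumors, with Chr 12 as diamonds, the other 18 autosomes as gray points and dashed lines at the thresholds of 0.3 and -0.4. Chr 12 lies at 0.064 to 0.638 in TI and at 0 to 0.023 in TIM.

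The 3 TI tumors below the threshold had a small positive log2 ratio over the whole chromosome. In each of them Chr 12 was listed at 0 up to between 3.04 and 3.24 Mb and formed 1 segment from there to its end, so that the 6 genes had the same value. The shift amounted to 0.204, 0.219 and 0.091 extra copies in TI replicates 1, 4 and 6. Other chromosomes of the same tumors were raised further, with 0.969 extra copies of Chr 17 in replicate 1, 0.712 of Chr 6 in replicate 4 and 0.273 of Chr 14 in replicate 6. The Chr 12 levels of these 3 tumors lie below the log2 ratio of 0.585 that 3 copies in every cell would give. Whether a part of the cells carried a gain was not tested in these bulk samples. TI replicate 1 is the IGF2BP1 +/- tumor and TI replicate 6 the tumor labelled as adrenal gland, while replicate 4 shares neither label.

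Mean and median of a segment differed in these 3 tumors. At Mycn the segment mean was 0.218, 0.222 and 0.144 in TI replicates 1, 4 and 6, which is 0.072 to 0.080 above the median. In the 5 gained tumors the mean differed from the median by -0.065 to 0.023, in AGM by 0.011 to 0.021 and in TIM by -0.037 to 0.043. Over segments of at least 20 Mb on other chromosomes, the middle value of this difference was 0.013 in replicate 1, -0.043 in replicate 4 and 0.052 in replicate 6. The highest was 0.043, 0.090 and 0.195, so that in replicates 4 and 6 the difference at Mycn was not the highest of its tumor. By either measure replicates 1, 4 and 6 stayed below 0.3 and above all TIM and AGM values at Mycn.

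The 6 genes mostly shared their values. Mycn, Ddx1 and Nbas had the same value in 21 of 21 samples, since 1 segment covered them throughout. Odc1 had the value of Mycn in 18 samples, and Rrm2 and Id2, which were identical to each other in all 21, had it in 14. The spread among the 6 was 0 in 5 of 5 AGM, 5 of 8 TI and 4 of 8 TIM. Where it was not, it reached at most 0.023 in TIM and 0.062 in TI, below the distance between the gained and the other tumors.

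Odc1, Rrm2 and Id2 departed from Mycn at a recurrent stretch between them. A segment edge lay between 17.38 and 18.36 Mb in TI replicates 2 and 3 and in TIM replicates 5, 7, 11 and 12, and in 0 of 5 AGM. In the first 5 of these samples the level rose again between 23.90 and 24.74 Mb, just before Rrm2, while in TIM replicate 12 it did not. Asap2, a regulator of ARF GTPases at chr12:21040460-21320172, and Adam17, a shedding protease at chr12:21373510-21423672, lie within the stretch and had values 0.0015 to 0.046 below Mycn in the 6 tumors (differences of -0.046 to -0.0015). They were singled out after their values had been seen. The segment means fell further, with Asap2 at -0.1535 to -0.0529 from Mycn. Odc1 spanned the edge in TI replicate 2, with 0.589 against 0.597 for Mycn. It lay inside the lower segment in TIM replicate 5, with -0.0082 against 0.0021, and in TIM replicate 7, with -0.00036 against 0.0028. In TIM replicate 11 a part of 0.860 Mb at chr12:23000001-23860000 reached -0.292, still above the loss threshold.

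**Figure D4:**
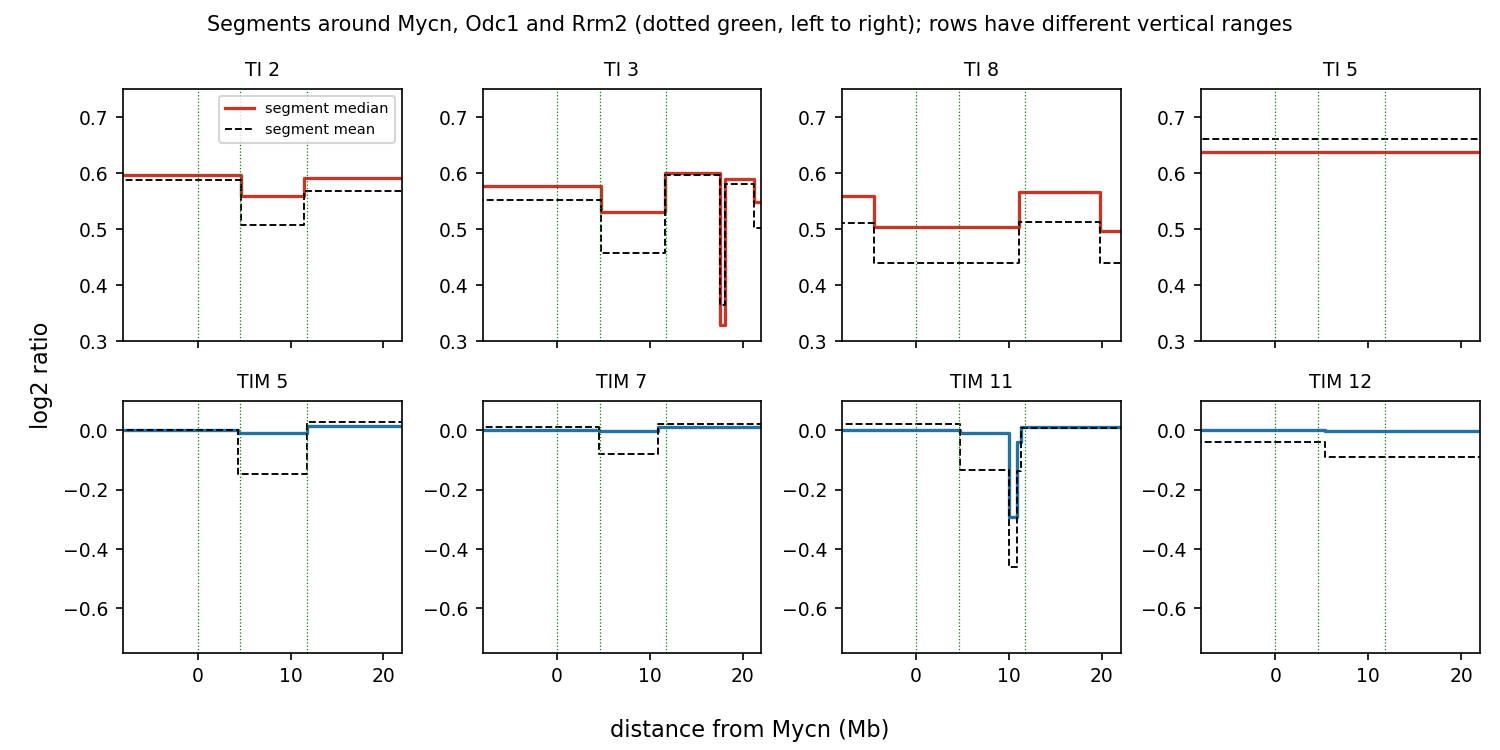
Segment median (solid) and segment mean (dashed) against the distance from Mycn in Mb, for TI replicates 2, 3, 8 and 5 and TIM replicates 5, 7, 11 and 12, with Mycn, Odc1 and Rrm2 as dotted lines. At Asap2, between Odc1 and Rrm2, the mean drops more than the median, to -0.1535 relative to Mycn for the mean and to -0.046 for the median. TI replicate 8 has no drop there relative to Mycn and TI replicate 5 has no step. A part in TIM replicate 11 goes lower, to a segment mean of -0.460.

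The stretch has few genes and no gaps. Taken as in TI replicate 2, from 17.60 to 24.48 Mb, it holds 10 protein-coding genes, or 1.45 per Mb, 0% N and 44.9% GC. Over 17 windows of this length along Chr 12 gene density ranged from 0.872 to 12.9 per Mb and GC from 37.7 to 47.8%. The part of sequence content in the step was not tested.

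TI replicate 8 had the largest spread among the 6 genes. Mycn, Ddx1, Nbas and Odc1 were at 0.504 there and Rrm2 and Id2 at 0.566. Along its Chr 12, segments alternated between a higher and a lower level from 0.466 to 0.571, leaving out segments under 2 Mb. These segments ranged from 38.1 to 46.0% GC, and GC and log2 ratio ran together over them with r = 0.788 (Spearman's rho = 0.745, n = 10 segments of a single library). The segment of Mycn was at 42.9% GC. In TI replicate 3 the same description gave r = 0.567 (rho = 0.657, n = 12) and in replicate 2 r = 0.144 (rho = 0.429, n = 7). The part of base composition in the levels was not tested. In TI replicate 8, 3 of 639 Chr 12 genes were not gained, Sp8, Abcb5 and Itgb8, all at 0.233 on a 0.960 Mb segment at chr12:118380001-119340000. In the other 4 gained tumors none of the 639 genes was below the threshold.

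Genes far from Mycn moved with it. Max, the gene of the dimer partner, lies 64.0 Mb away at chr12:76984043-77009009. In the gained TI replicates 2, 3, 5, 7 and 8 it had log2 ratios of 0.596, 0.5999, 0.638, 0.603 and 0.561, and in TI replicates 1, 4 and 6 the same values as Mycn. In TIM it ranged from 0.0026 to 0.043, the highest in replicate 9, where 2 parts of Chr 12 were slightly raised. TI did not overlap with TIM or AGM at Max, as at all 639 genes of Chr 12, while TIM and AGM overlapped.

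A list of 35 other Chr 12 genes gave the same picture. It holds 22 genes of the 2p-syntenic part, such as the epigenetic regulator Dnmt3a, Lpin1 and Sox11, 3 of a part syntenic with human 7p, among them Twist1, and 10 of the 14q-syntenic part, among them Hif1a, Fos and Akt1. In 0 of the 35 did the gain call differ from that of Mycn in any sample. Against TIM, 22 of 22, 3 of 3 and 10 of 10 were called higher in TI, with median differences of 0.534, 0.509 and 0.565 beside -0.0045 over all genes tested. Against AGM all 35 were called higher too, and between TIM and AGM none was called. By the exact permutation test all 639 genes of Chr 12 were called higher in both comparisons of TI, beside 10.7% (against TIM) and 6.35% (against AGM) of all genes, so that these counts are not particular to the list. In the gained tumors the 35 genes lay between 0.466 and 0.692, and in TI replicates 1, 4 and 6 between 0.064 and 0.150. Genome-wide, 6.94% of all genes (1431) were gained in at least 5 of 8 TI tumors, and these included 636 of the 639 genes of Chr 12, 794 genes of Chr 11 and 1 of Chr 7.

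The gain at Mycn was compared with that of mouse Igf2bp1 on Chr 11. All 5 TI tumors gained at Mycn were gained at Igf2bp1 as well, with 0.587 to 0.962 at Igf2bp1. TI replicates 1 and 4 and TIM replicate 9 were gained at Igf2bp1 alone, with 0.571, 0.529 and 0.588, and 0 samples were gained at Mycn alone.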

How the data were processed

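Copy number of 21 mouse samples (5 AGM, 8 TI, 8 TIM) was taken from deposited segments. The authors trimmed reads with cutadapt 2.8, aligned them with HISAT2 2.1.0 to mm39 (GRCm39), used SAMtools 1.10 and computed copy number with cn.MOPS. The authors deposited per segment a median and a mean log2 ratio to wildtype adrenal glands. In all 1485 segments the listed copy number equalled 2 times 2 to the power of the median, to 1 decimal. Segments started on a 20 kb grid. Bin and segmentation settings are not given in the sources used here, and read depth was not analysed here, so no interval based on it is given.

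Genes came from GENCODE M39. A gene's value is the median log2 ratio of the segment over it. Where several segments overlap a gene, it is the mean of their medians, weighted by overlap. Groups follow the sample descriptions. Replicates are separately labelled samples, but the labels do not tie tumors to animals, so p-values measure only the spread between samples. Of 210 pairs of samples 0 held identical values.

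Groups were compared by two-sided exact permutation tests of the rank sum, adjusted (BH, limit 0.05) over 20621 genes. Gains were log2 ratios of at least 0.3 and losses of at most -0.4. The 6 genes, the list of 35 genes and the tests were chosen with earlier results of these data known. The text names the 6 genes, Max and genes whose call differed from Mycn's, and others as examples. Alternatives were the segment mean, a difference of means, limma 3.58.1, the segment at the gene's start, other thresholds, other definitions of the rest of Chr 12, subsets of tumors, a replicate block, 20 kb bins and leaving out each sample. The adjusted permutation test was run on simulated data (20621 genes, 200 of them shifted by 0.5). It recovered 100% of the shifted genes with the sample numbers of TI against TIM. With those of TI against AGM and of TIM against AGM it recovered 0%. There at least 641 genes must share the smallest p (without ties), so that 200 shifted genes were too few to pass. Recovery at the spread of the TI tumors (SD 0.245 at Mycn), or of shifts shared along a chromosome, was not tested. Scripts ran under Python 3.11.15 (with scipy 1.17.1 and pandas 2.3.3) and R 4.3.3.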

Additional observations from a re-analysis of the deposited data

Results flagged for a closer look

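In 2 measures TI replicate 8 lay far from the remaining tumors of its group. Mycn minus the rest of Chr 12 was -0.044 there, while the nearest other TI tumor was at 0. The spread among the 6 genes was 0.062, the highest in TI, with 0.024 in the next tumor. Over 30 sets of values tested in this way (10 measures in 3 groups), 2 had such a sample, and chance gives about 1.5. Outside 1 Mb around Mycn in place of 5 Mb, the difference in TI replicate 8 was -0.0038.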

How the results depend on the processing

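At Mycn, TI stayed above TIM and AGM in direction under each alternative run. Leaving out each sample in turn gave adjusted p-values of 0.0035 to 0.010 for TI against TIM, 0.0078 to 0.026 for TI against AGM and 0.371 to 0.835 for TIM against AGM. The first 2 kept their call. For Mycn minus the rest of Chr 12 the same gave p of 0.470 to 1 (TI against AGM), 0.072 to 0.364 (TI against TIM) and 0.205 to 0.470 (TIM against AGM). Most values of this measure are tied at 0 by construction, so that these p-values decide little. As a replicate block, with sign flips within 5 shared numbers, the adjusted p at Mycn was 0.167 for TI against TIM and 0.109 for TI against AGM, where the unadjusted p cannot go below 0.0625. Correlations of same-numbered samples ran from -0.365 to 0.409 for TI and TIM, with 2 of 5 over 0.1. The labels do not tie the numbers to shared animals, and the numbers were not taken as pairs. In the block, Mycn minus the rest of Chr 12 changed its sign for TI against TIM at an exact p = 1. A difference of means gave an adjusted p of 0.0626 at Mycn for TI against AGM, and turned the sign of Mycn minus the rest of Chr 12 at an exact p = 1 for TI against AGM and TI against TIM, with TI replicate 8 as the only negative TI value. Against the other 18 autosomes Mycn was higher in TI than in AGM (exact permutation p = 0.00155) and TIM (p = 0.000155). At a copy number above 4 no tumor was called (Fisher's exact p = 1). The 2203 genes higher in TI than in TIM became 644 to 2360 with each tumor left out in turn (chosen after seeing the data), 928 with IGF2BP1 +/+ tumors only, which leaves out TI replicate 1 alone, 1315 outside the adrenal gland, and 1314 by limma. As 20 kb bins, 9323 of 123133 (7.57%) were higher in TI, beside 10.7% of the genes. At a threshold of 0.1, 7 of 8 TI and 0 of 8 TIM were gained at Mycn (Fisher's exact p = 0.0014). Bins of 20 kb and shallow reads limit the size of change that can be seen.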
